A study of Mus musculus with 17 samples.

Results

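The 6 crystallin genes described here, Crybb3, Cryba2, Cryab, Crym, Cryz and Cryl1, were followed in mouse pancreatic islets over 48 h of culture. They are 6 of the 18193 genes that had a probe set with 1 gene symbol, and 12 of the 45037 probe sets tested. Members were taken by gene symbol, and the group was selected on the measured log2 levels at 0, 24 and 48 h, with Crybb3 in the lead, so that these levels are given as a description and without a test. The islets came from C57BL/6 mice in 6 batches, each pooled from 4 animals and divided over the 3 times, so that the arrays of one time are separate batches and each batch is a pool with no measure of single animals. All groups were kept in F12K medium with 10% FBS and received no treatment; the mice's age and sex are not given in the sources used here, and islets hold several endocrine cell types as well as vessel, stromal and immune cells. The 17 arrays (single-colour Affymetrix GeneChips of the mouse genome) comprised 5 at 0 h, 6 at 24 h and 6 at 48 h; for batch 5 only the cultured portions are used here. Levels are log2 signals made by RMA, which summarises the probes of each probe set after background subtraction and quantile normalization, and a difference of 1 is a doubling.

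Crystallins are the soluble proteins that fill the lens and give it its refractive index. The name covers unrelated families: the beta- and gamma-crystallins, stable proteins built of Greek key folds, the alpha-crystallins, which are small heat shock proteins that hold unfolding proteins in solution, and enzymes that some species have recruited to the lens. Several are transcribed outside the lens, and Cryba2 is known as a gene of pancreatic endocrine cells.

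The arrays resembled each other closely, with pairwise correlations of 0.976 to 0.995 over the probe sets and medians of 3.47 to 3.58. No detection call was used, and a level near the median of the whole table, 3.52, was not separated from background. The islet label was met by Ins2, Iapp and Gcg, whose mean log2 levels were 13.73, 13.04 and 12.75. In limma's fit across all probe sets with Benjamini-Hochberg adjustment, 6 of 8 measured beta cell markers fell at 24 h and 5 of 8 at 48 h against 0 h. Endothelial markers fell in 6 of 10 and 7 of 10 genes, macrophage and dendritic cell markers in 6 of 11 (with 1 risen) and 4 of 11 (with 2 risen), and acinar markers in 2 of 12 and 6 of 12. Other endocrine cell markers, among them Sst, Ppy and Ttr, fell in 5 of 7 genes at 24 h and 2 of 7 at 48 h. Stellate cell markers fell in 4 of 12 at 24 h and in 2 of 12 at 48 h, with 3 risen, and of 9 duct markers 3 rose at 24 h and 1 at 48 h. Beside these counts, 6.66% and 5.27% of all genes fell and 5.44% and 6.45% rose at 24 and 48 h. The mean log2 level of the acinar list spanned 5.51 to 8.07 on the 0 h arrays, 4.14 to 6.89 after 24 h and 3.93 to 5.41 after 48 h, and that of the endothelial list 6.12 to 6.52, 5.34 to 5.54 and 4.72 to 5.23. In bulk islets, fewer cells of a type and less RNA per cell cannot be told apart, and the part of cell composition in the values below was not tested.

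The beta-crystallins are the branch of the list that Crybb3 and Cryba2 belong to, and their promoters are shown because one gene's level was far higher in culture and the other's was not. RefSeq promoters, 250 bases before to 50 bases after the annotated start, were found for 4 of the 6 members (GRCm38.p6). Capitals mark matches to the Maf half-site TGCTGA on either strand, to the AP-1 core TGACTCA, which also forms the centre of a class of Maf recognition elements, and to the TATA box TATAAA.
Crybb3 promoter, chr5:113081535-113081834, minus strand: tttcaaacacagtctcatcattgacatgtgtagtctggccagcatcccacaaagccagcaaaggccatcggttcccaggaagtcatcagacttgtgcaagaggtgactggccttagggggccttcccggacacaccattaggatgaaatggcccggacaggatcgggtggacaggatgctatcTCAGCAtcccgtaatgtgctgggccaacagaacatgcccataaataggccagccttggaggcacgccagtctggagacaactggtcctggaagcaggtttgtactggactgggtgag
Cryba2 promoter, chr1:74893094-74893393, minus strand: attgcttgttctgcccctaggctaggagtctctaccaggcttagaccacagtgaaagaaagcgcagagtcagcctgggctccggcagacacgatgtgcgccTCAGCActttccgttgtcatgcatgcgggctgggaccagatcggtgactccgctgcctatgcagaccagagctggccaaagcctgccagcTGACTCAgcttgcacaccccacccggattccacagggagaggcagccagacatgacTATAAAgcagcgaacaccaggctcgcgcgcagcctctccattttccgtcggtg
The Crybb3 window held 1 match of those searched, a Maf half-site at base 184. The Cryba2 window held a half-site at base 102, the AP-1 core at base 192 and TATAAA at base 248, and also 3 matches to the antioxidant response core TGACNNNGC, of which the one at base 192 overlaps the AP-1 core. Neither window held the heat shock element GAANNTTC or the C/EBP-ATF response motif TGATGNAA. Of 32851 mouse promoters of this length, 19.5% held the half-site, 5.2% the AP-1 core, 12.4% the antioxidant response core, 7.86% the heat shock element, 3.97% the C/EBP-ATF response motif and 8.32% TATAAA on the coding strand. All were searched on both strands except TATAAA.

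Crybb3, a beta-crystallin of the lens fibre, was read by 1 probe set (1419005_at). At 0 h its log2 level was 4.77, 4.74, 4.86, 4.44 and 5.05 in batches 1, 2, 3, 4 and 6. The 24 h arrays spanned 7.49 to 8.61 (median 8.08) and the 48 h arrays 7.63 to 7.94 (median 7.77). Every cultured array lay above every array at 0 h, and the arrays at 24 and 48 h overlapped. The difference was 3.32 ± 0.15 (SE; 9.99-fold) at 24 h and 3.00 ± 0.15 (8.01-fold) at 48 h against 0 h, from 5, 6 and 6 arrays. Within the 5 batches measured at 0 h, it spanned 2.88 to 4.17 after 24 h and 2.73 to 3.21 after 48 h, and was positive in 5 of 5 batches each time.

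Between 24 and 48 h the level of Crybb3 differed by -0.32 ± 0.14, and within batches by -0.98 to 0.27. In 5 of 6 batches the 48 h array was the lower one, and in batch 5, which gave the lowest value of the 24 h arrays, it was the higher one. The spread over batches was wider at 24 h (SD 0.38, n = 6) than at 48 h (SD 0.11, n = 6). Leaving out any single array moved the difference from 0 h to between 3.22 and 3.44 at 24 h and between 2.92 and 3.07 at 48 h.

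**Figure D1:**
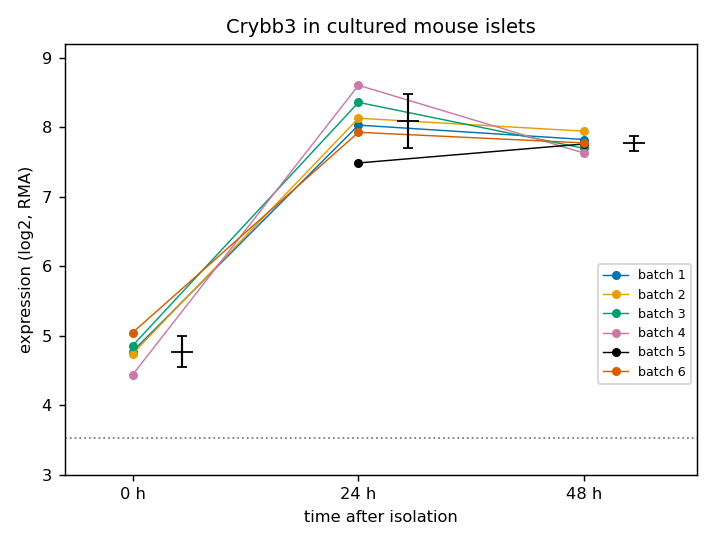
Log2 level of Crybb3 on each of the 17 arrays (vertical axis) against the time in culture (horizontal axis, h); lines join the arrays of one batch, the black bars give mean ± SD and the dotted line is the median of the whole table. The 5 arrays at 0 h lie between 4.44 and 5.05, and the 12 cultured arrays between 7.49 and 8.61.

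Among all 18193 genes, Crybb3 ranked 5th by difference at 24 h and at 48 h against 0 h. The study's design text selects genes whose mean linear signal exceeds 4-fold of that at 0 h; by that rule 43 probe sets lay above at 24 h and 34 at 48 h, and Crybb3 was the 1 member among them. These ranks use the values that chose the gene, and the comparisons at 24 and 48 h share the arrays at 0 h.

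Cryba2, a beta-crystallin of the acidic subgroup, was read by 1 probe set (1419011_at). At 0 h its log2 level was 6.23, 5.74, 5.68, 5.85 and 5.93 in batches 1, 2, 3, 4 and 6. The 24 h arrays spanned 5.52 to 5.91 (median 5.75) and the 48 h arrays 5.49 to 5.96 (median 5.60). The 3 times overlapped, and batch 1 at 0 h gave the highest value. The difference from 0 h was -0.14 ± 0.10 at 24 h and -0.24 ± 0.10 at 48 h. All 5 batches had a lower level at 48 h than at 0 h, with differences of -0.58 to -0.09, and without the 0 h array of batch 1 the difference at 48 h was -0.16. The array of batch 5 at 48 h stood above the other 5, which lay between 5.49 and 5.65.

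Differences from 0 h among the other beta- and gamma-crystallins lay between -0.49 and 0.40. Of 15 listed, 13 were measured, 6 of them with a mean above the table median. At 24 h against 0 h 0 rose and 1 fell (limma; at an unadjusted p under 0.05, 1 was higher and 2 lower), although 1 rose under 4 of the other settings, and at 48 h 0 rose and 1 fell (0 higher and 2 lower unadjusted). Their median difference was -0.02 at 24 h and -0.09 at 48 h. Over all 18193 genes, 5.44% and 6.45% rose and 6.66% and 5.27% fell at 24 and 48 h.

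Crybg3, a large non-lens relative, fell by 0.49 at 24 h (SE 0.14, adjusted p = 0.0274, limma), but not with the batch as a block (adjusted p = 0.0607), in the complete batches (adjusted p = 0.0612) or with the arrays of those 2 times alone (adjusted p = 0.0758). Crygf, a gamma-crystallin with near-identical copies that its probe set may not tell apart, spanned 3.88 to 4.09 on the 0 h arrays and 3.48 to 3.84 after 48 h, and fell by 0.30 at 48 h (adjusted p = 0.0234, limma), at a level near the table median, where values are not separated from background. Crybg2 and Crybb1 are named for their values: Crybg2 was at 0.40 ± 0.12 (adjusted p = 0.0506, limma) and passed as higher at 24 h after a second quantile normalization (0.0427), with a filter on level (0.0356), with the batch as a random block (0.0474) and in the complete batches (0.0199). The mean of Crybg2, 3.87, was also near the table median, where values are not separated from background. Crybb1, at -0.27 ± 0.09 (adjusted p = 0.0596, limma), passed as lower with the batch as a block (0.0328) and with the filter (0.0492). Crybb2, a beta-crystallin gene beside Crybb3 on chromosome 5, had a log2 level of 4.32 to 4.41 at 0 h, 4.27 to 4.55 at 24 h and 4.10 to 4.39 at 48 h, all overlapping.

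**Figure D2:**
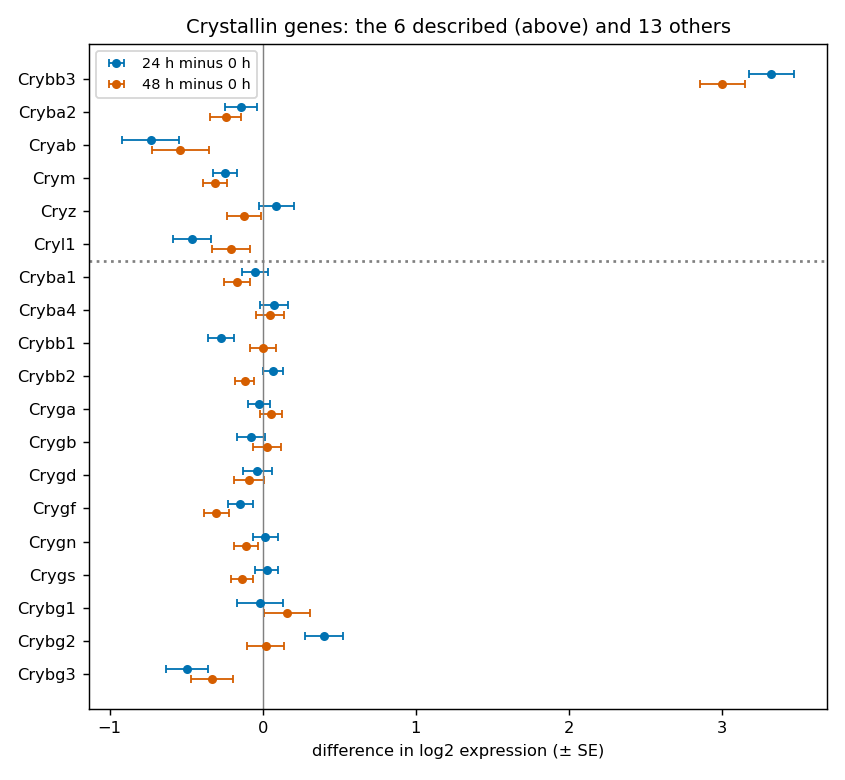
Log2 difference from 0 h ± SE at 24 and 48 h (horizontal axis) for the 6 members, above the dotted line, and the 13 other beta- and gamma-crystallins below it. Crybb3 lies at 3.32 and 3.00, and the other 18 genes lie between -0.73 and 0.40.

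Markers of lens fibres were measured beside these values. Of 9 measured genes of the lens fibre list, 0 rose and 0 fell in any of the 3 comparisons (limma, with 1 higher at 24 h against 0 h and 4 lower between 24 and 48 h at an unadjusted p under 0.05). Shares over all genes were 5.44% risen and 6.66% fallen at 24 h and 6.45% and 5.27% at 48 h. Between 24 and 48 h they were 0.429% and 0.33%. The mean log2 level of the list spanned 3.92 to 3.97 on the 0 h arrays, 3.92 to 4.13 after 24 h and 3.71 to 3.96 after 48 h. In this list Mip, Lim2, Gja3, Bfsp1, Cryaa and Crygs had means under the table median, and Tdrd7, Bfsp2 and Birc7 stood above it.

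Cryab, alpha-B-crystallin, a chaperone that is abundant in lens, heart and muscle, was read by 3 probe sets, all close to or under the table median. On the brightest (1434369_a_at) the 0 h arrays gave 3.68, 3.41, 4.74, 3.55 and 3.51 in batches 1, 2, 3, 4 and 6. The 24 h arrays spanned 2.87 to 3.22 (median 3.01) and the 48 h arrays 3.06 to 3.71 (median 3.14). The arrays at 24 h lay under all those at 0 h, and those at 48 h overlapped them. The difference from 0 h was -0.73 ± 0.18 at 24 h and -0.54 ± 0.18 at 48 h, and without the single array of batch 3 at 0 h it was -0.49 and -0.30. The other 2 probe sets, which were under the table median on all 17 arrays, gave -0.10 ± 0.11 and -0.06 ± 0.07 at 24 h, and -0.21 ± 0.11 and -0.14 ± 0.07 at 48 h. The 3 probe sets correlated at 0.18 to 0.33 across the 17 arrays, so they did not report one common course.

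Of the small heat shock proteins and partners of Cryab, 13 genes were measured, and 3 rose and 1 fell in each comparison with 0 h. Among all genes, 5.44% rose and 6.66% fell at 24 h, and 6.45% rose and 5.27% fell at 48 h. Vim, an intermediate filament protein that the alpha-crystallins bind, had a log2 level of 5.12 to 5.78 at 0 h, 6.41 to 6.64 at 24 h and 6.61 to 7.75 at 48 h. It rose by 0.97 ± 0.16 (limma, adjusted p = 0.000491) and 1.85 ± 0.16 (adjusted p = 4.83e-07), and by a further 0.88 ± 0.15 between 24 and 48 h (adjusted p = 0.0109). Vim is also a gene of stromal and immune cells. Of 12 stellate cell, fibroblast and pericyte markers, 0 rose and 4 fell at 24 h, and 3 (Col1a1, Col1a2, Col3a1) rose and 2 (Rgs5, Thy1) fell at 48 h (limma; 0 were higher at 24 h at an unadjusted p under 0.05). Of the 11 macrophage and dendritic cell markers, Cd68 and Lyz2 rose and Adgre1, Csf1r, H2-Aa and H2-Eb1 fell at 48 h. The part of these cells in the value of Vim was not tested.

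Bag3, the co-chaperone that links small heat shock proteins to autophagy, rose by 0.65 ± 0.13 (adjusted p = 0.00268, limma) and 0.55 ± 0.13 (adjusted p = 0.0108). Dnajb6, a co-chaperone of the DNAJ family, rose by 0.29 ± 0.07 and 0.30 ± 0.07. Hspb1, the small heat shock protein HSP25, fell by 0.57 at 24 h (adjusted p = 0.00675, limma) and by 0.78 at 48 h (adjusted p = 0.000508). Its log2 level spanned 5.34 to 5.88 on the 0 h arrays and 4.72 to 5.23 after 48 h, without overlap. The other Hspb1 probe set, with a mean of 4.99 against 5.19, was at -0.42 at 24 h and did not pass (adjusted p = 0.146, limma). At 48 h it fell by 0.69 (adjusted p = 0.0122, limma). Cryaa, the lens alpha-crystallin that partners Cryab, was at 0.03 ± 0.11 and -0.10 ± 0.11, and Hspb2, the gene next to Cryab on chromosome 9, at -0.07 ± 0.09 and 0.06 ± 0.09; neither passed. The list's median difference was 0.09 at 24 h and -0.10 at 48 h, so that genes of this group did not go one way.

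Crym, mu-crystallin, is a ketimine reductase that binds thyroid hormone in the cytosol. Its probe set (1416776_at) gave 3.22, 2.92, 3.19, 3.20 and 3.11 at 0 h in batches 1, 2, 3, 4 and 6, and was under the table median on all 17 arrays. The 24 h arrays spanned 2.70 to 3.10 (median 2.88) and the 48 h arrays 2.64 to 2.92 (median 2.84). The arrays at 48 h lay under all those at 0 h, by a margin that is lost in rounding, and those at 24 h overlapped them. The difference was -0.25 ± 0.08 and -0.31 ± 0.08, and it was negative in 5 of 5 batches in both comparisons, at a level that was not separated from background.

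Of 11 measured genes that handle thyroid hormone, the ligand of Crym, 10 had a mean above the table median. Of the 11, 3 fell at 24 h and 5 at 48 h against 0 h, with 0 risen (at an unadjusted p under 0.05, limma had 1 higher at 24 h and 0 at 48 h). The shares over all genes were 6.66% and 5.27% fallen and 5.44% and 6.45% risen. The list's median difference was -0.23 and -0.25, against -0.01 and -0.02 over all genes. It was not particular to this list. The beta cell markers had medians of -0.52 and -0.33, and the other endocrine markers, which also hold Ttr, -0.72 and -0.36. The duct markers stood at -0.02 and -0.09. Dio1, a deiodinase that activates thyroxine, fell by 0.72 (adjusted p = 0.0105, limma) and 0.77 (adjusted p = 0.00695). Slc16a10, a transporter of aromatic amino acids and thyroid hormone, fell by 0.67 (adjusted p = 3.81e-05, limma) and 0.38 (adjusted p = 0.00871). Of its 3 other probe sets, 1 fell in both comparisons and 1 at 24 h alone, and the third, under the table median, was at 0.06 and 0.03. Ttr, transthyretin, a thyroxine carrier that alpha cells make in quantity, spanned 12.88 to 13.05 on the 0 h arrays and 12.31 to 12.58 after 24 h, and fell in both comparisons (adjusted p = 0.000266 and 0.00245, limma). Klf9, a transcription factor induced by thyroid hormone, fell by 0.41 at 48 h and Slc7a8, an amino acid transporter, by 0.36 (adjusted p = 0.00871 and 0.00895, limma). On the probe set with the highest mean, neither receptor passed. Thra was at -0.16 ± 0.10 and -0.20 ± 0.10, and Thrb at 0.04 ± 0.08 and 0.12 ± 0.08. Another probe set of Thra, with a mean of 5.98 against 6.31, passed as lower in both comparisons. It was at -0.67 (adjusted p = 0.000217, limma) and -0.50 (adjusted p = 0.00383). The remaining Thra probe set, with a mean of 4.70, was at -0.15 and -0.26 and did not pass.

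**Figure D3:**
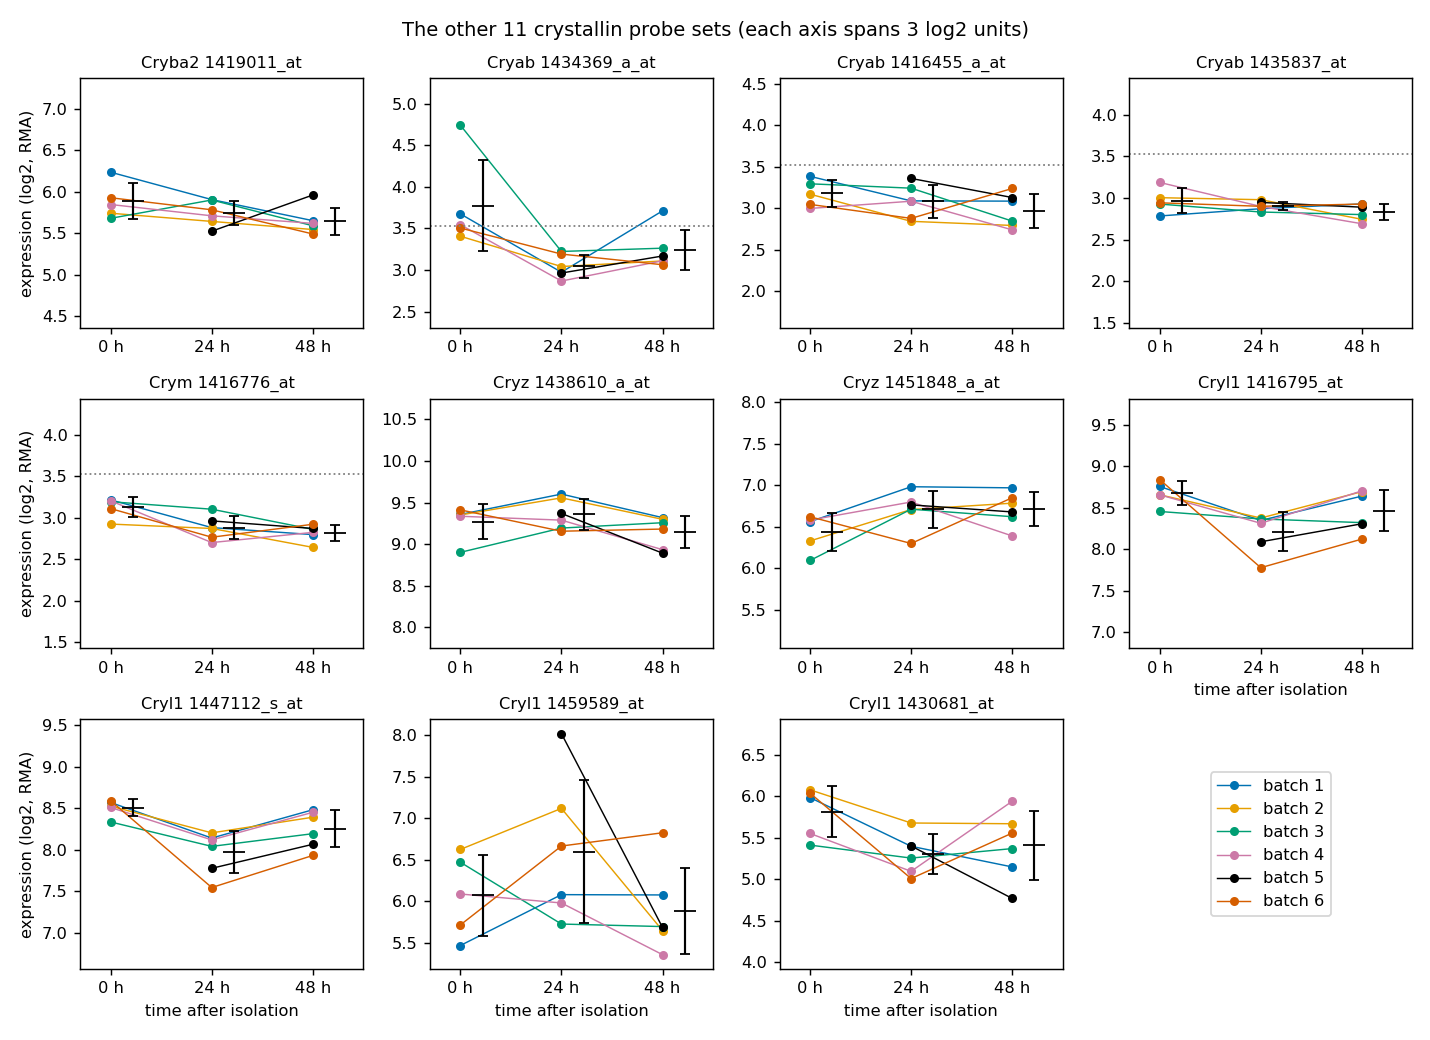
Log2 level on the 17 arrays of every probe set of Cryba2, Cryab, Crym, Cryz and Cryl1, against time in culture (h). Lines join arrays of a batch and black bars give mean ± SD. The dotted line, where the axis of a panel reaches it, is the table median. Crym and most arrays of Cryab lie under that line. On 1438610_a_at Cryz lies between 8.89 and 9.60, and on 1416795_at the 24 h arrays of Cryl1 lie under its 0 h arrays.

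Cryz, zeta-crystallin, is an NADPH-dependent quinone oxidoreductase found in many tissues and recruited to the guinea pig lens. Its brighter probe set (1438610_a_at) gave 9.36, 9.35, 8.90, 9.34 and 9.41 at 0 h in batches 1, 2, 3, 4 and 6. The 24 h arrays spanned 9.16 to 9.60 (median 9.33) and the 48 h arrays 8.89 to 9.32 (median 9.22). All 3 times overlapped, and the 0 h array of batch 3 stood under the other 4, which lay between 9.34 and 9.41. The difference from 0 h was 0.09 ± 0.11 at 24 h and -0.12 ± 0.11 at 48 h. The other probe set (1451848_a_at) gave 0.27 ± 0.12 and 0.28 ± 0.12, so that the 2 probe sets differed in sign at 48 h, with overlapping arrays on both.

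Of 10 measured quinone and enone reductases related to Cryz by function or sequence, 3 rose at 24 h and 5 at 48 h against 0 h, and 0 fell (also 0 at an unadjusted p under 0.05, limma). The list's median difference was 0.05 at 24 h and 0.30 at 48 h. Of all genes, 5.44% and 6.45% rose and 6.66% and 5.27% fell. Akr1b8, an aldo-keto reductase, spanned 3.38 to 3.88 on the 0 h arrays, 4.42 to 4.97 after 24 h and 3.88 to 4.90 after 48 h. It rose by 1.21 ± 0.15 (adjusted p = 1.85e-05, limma) and 0.72 ± 0.15 (adjusted p = 0.00382), from a level near the table median. Nqo1, the quinone reductase named for the same reaction, rose by 0.81 ± 0.14 (adjusted p = 0.000531, limma) and 0.51 ± 0.14 (adjusted p = 0.0224). Cryzl1, a homologue of Cryz, rose by 0.36 ± 0.07 and 0.37 ± 0.07, while its 4 probe sets ran from -0.19 to 0.36 at 24 h. Mecr, a mitochondrial enoyl reductase, rose by 0.39 ± 0.10 at 48 h (adjusted p = 0.0224, limma). Ptgr2, a prostaglandin reductase, rose by 0.35 ± 0.09 at 48 h (adjusted p = 0.0172, limma), but not with the batch as a block (adjusted p = 0.0537).

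Cryl1, lambda-crystallin, is an L-gulonate dehydrogenase of the uronate cycle. Its probe set with the highest mean (1416795_at) gave 8.75, 8.65, 8.45, 8.65 and 8.84 at 0 h in batches 1, 2, 3, 4 and 6. The 24 h arrays spanned 7.78 to 8.37 (median 8.33) and the 48 h arrays 8.12 to 8.70 (median 8.48). All arrays at 24 h lay under those at 0 h, and those at 48 h overlapped both. The difference was -0.46 ± 0.12 at 24 h and -0.21 ± 0.12 at 48 h against 0 h, and 0.25 ± 0.12 between 24 and 48 h. Within batches the level at 24 h was lower in 5 of 5, by values from -1.06 to -0.09, with batch 6 lowest at 24 and 48 h.

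The 4 probe sets of Cryl1 did not all take that course. 1447112_s_at, which correlated with the first at 0.976 over 17 arrays, differed by -0.53 ± 0.12 and -0.25 ± 0.12, and 1430681_at by -0.51 ± 0.18 and -0.40 ± 0.18. 1459589_at, designed on the same accession (C85932) as 1447112_s_at, gave 0.52 ± 0.35 and -0.19 ± 0.35, with a value of 8.02 in batch 5 at 24 h, and correlated with the first at -0.56.

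Of 9 measured genes of glucuronate and pentose interconversion around Cryl1, 3 rose in both comparisons with 0 h and 0 fell (also 0 at an unadjusted p under 0.05, limma). Their median difference was 0.15 at 24 h and 0.09 at 48 h. Among all genes 5.44% and 6.45% rose and 6.66% and 5.27% fell. Ugdh, which makes UDP-glucuronate, spanned 7.31 to 7.67 on the 0 h arrays, 8.77 to 8.97 after 24 h and 8.16 to 8.80 after 48 h. It rose by 1.43 ± 0.10 (adjusted p = 4.18e-08, limma) and 0.99 ± 0.10 (adjusted p = 5.18e-06). Rgn, regucalcin, a gluconolactonase, rose by 1.18 ± 0.14 and 1.13 ± 0.14, and Gusb, the lysosomal beta-glucuronidase, by 0.53 ± 0.10 and 0.56 ± 0.10. Akr1a1, the aldehyde reductase that makes L-gulonate, the substrate of Cryl1, was at -0.00 ± 0.06 and 0.02 ± 0.06 and did not pass.

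**Figure D4:**
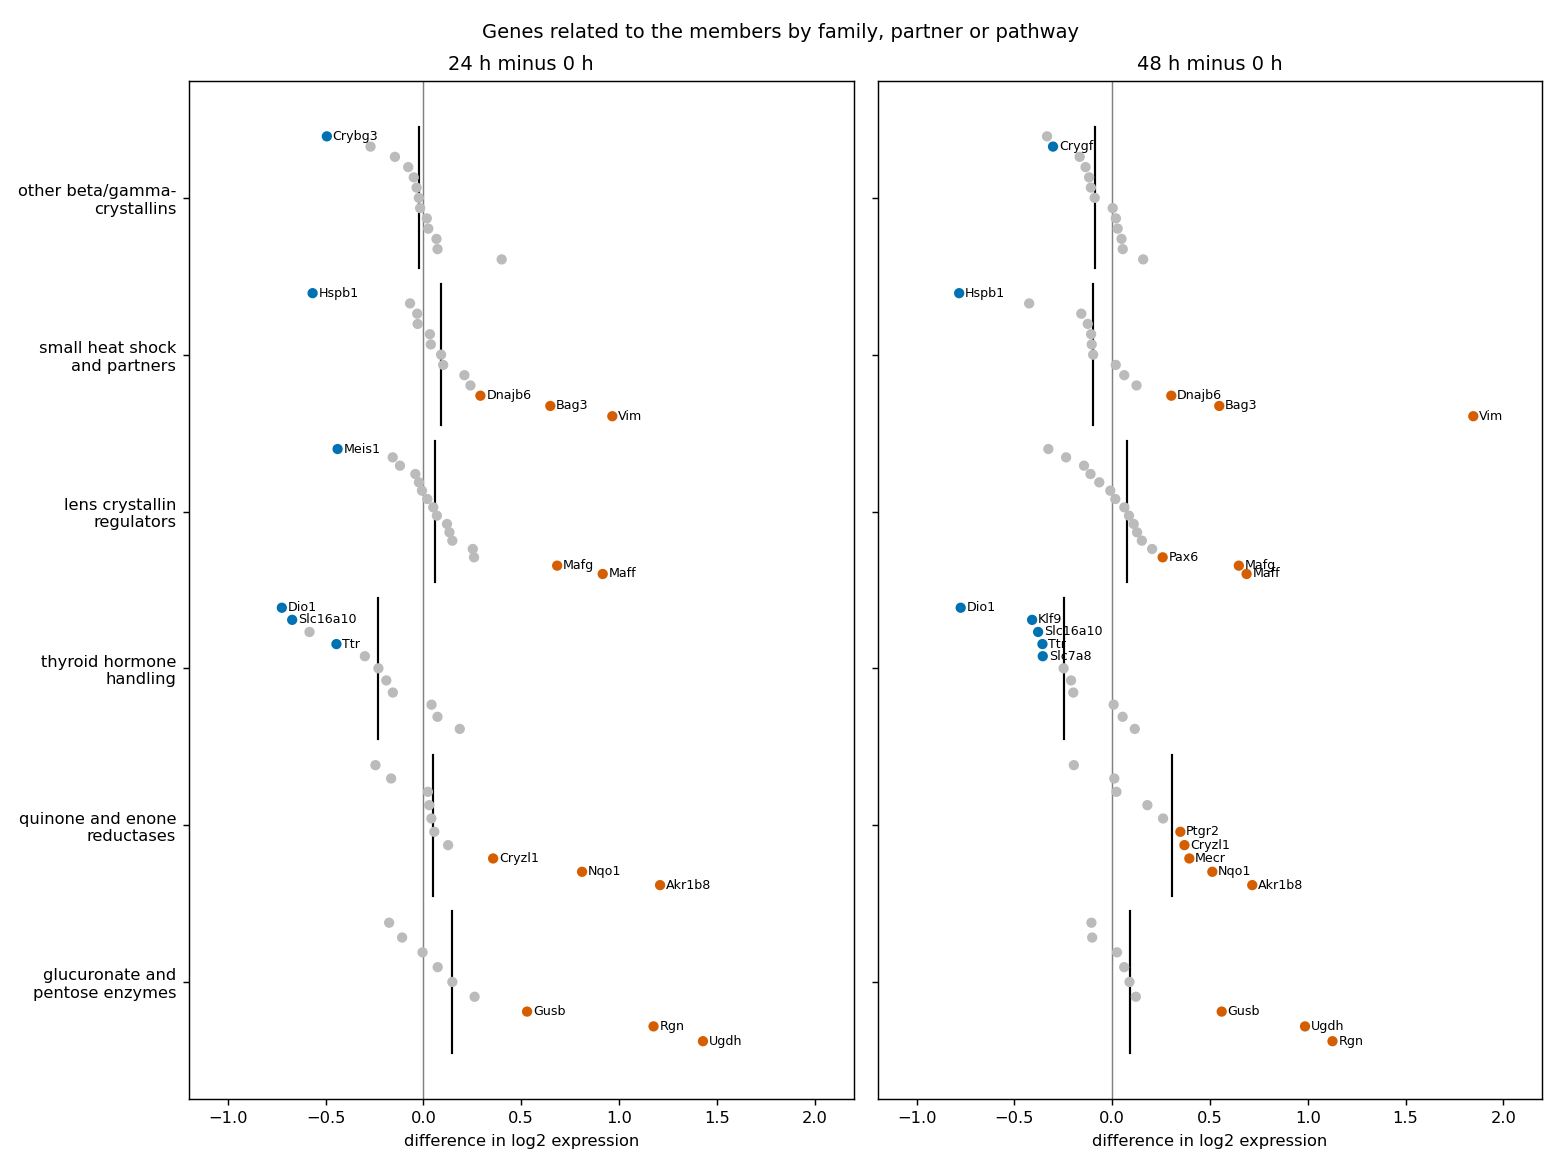
Log2 difference from 0 h at 24 and 48 h (horizontal axis) for the measured genes of each list of related genes (rows); orange points rose and blue points fell at an adjusted p under 0.05, grey points did not pass, and the black line is the list's median. The thyroid hormone list has its median at -0.23 and -0.25, and the reductases and the glucuronate genes have 0 fallen genes.

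Counted together, 1 of the 6 members (Crybb3) was called higher and 2 (Cryab, Cryl1) lower at 24 h against 0 h in the fit over all probe sets, where 12.1% of all genes were called, 5.44% higher and 6.66% lower. At 48 h 1 (Crybb3) was called higher and 1 (Crym) lower, where 11.7% of genes were, 6.45% higher and 5.27% lower. Between 24 and 48 h 0 members were called by limma, against 0.759% of genes (0.429% higher and 0.33% lower). Cryl1 differed there by 0.25 ± 0.12 and Crybb3 by -0.32 ± 0.14. Arrays did not overlap for 3 members at 24 h and 2 at 48 h against 0 h, where 8.78% and 9.17% of all genes did not overlap, and for 0 members between 24 and 48 h, where 1.57% did not. The rule used these contrasts, and nothing is read from the counts. Cryab and Crym were called at levels near or under the table median, which were not separated from background. The median difference over the members was -0.20, -0.23 and -0.08 in the 3 comparisons, against -0.01, -0.02 and -0.00 over all genes, so that the size of Crybb3 was not shared by the list.

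Correlations between members over the 17 arrays are given as a description, with time as a common source. Crybb3 correlated with Crym at -0.75, with Cryab at -0.67 and with Cryz at -0.00. With each time's mean taken out, the 15 pairs lay between -0.45 (Cryab with Cryz) and 0.43 (Cryz with Cryl1). No pair of members followed one course from array to array.

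Transcription factors that act on lens crystallin promoters were measured for 16 genes, of which 2 rose and 1 fell at 24 h and 3 rose at 48 h against 0 h (3 with 1 fallen and 2 with 1 fallen after a second quantile normalization). Maff and Mafg, small Maf proteins that bind Maf sites without an activation domain of their own, were among them. Maff spanned 4.76 to 5.67 on the 0 h arrays and 5.77 to 6.51 after 24 h, and rose by 0.92 ± 0.16 (adjusted p = 0.000671, limma) and 0.69 ± 0.16 (adjusted p = 0.00856). Mafg spanned 6.05 to 6.61 on the 0 h arrays, 6.94 to 7.18 after 24 h and 6.83 to 7.30 after 48 h, and rose by 0.68 ± 0.10 (adjusted p = 0.000128, limma) and 0.65 ± 0.10 (adjusted p = 0.000302). Pax6, the eye and islet regulator, stood at 9.78 to 10.02 at 0 h on its probe set with the highest mean. There it rose by 0.26 ± 0.07 at 48 h (adjusted p = 0.0299, limma), but not with the batch as a block (adjusted p = 0.0669), in the complete batches (adjusted p = 0.0523) or after a second quantile normalization (adjusted p = 0.0796). Its 5 probe sets ran from 0.01 to 0.80 at 48 h. The one at 0.80, with a mean of 7.12, passed as higher at 48 h (adjusted p = 0.000459, limma). It also passed at 24 h, at 0.59 (adjusted p = 0.00578, limma). The remaining Pax6 probe sets had means under the table median and did not pass. Meis1, a homeobox factor upstream of Pax6 in the lens, fell by 0.44 at 24 h (adjusted p = 0.0188, limma). Without the 0 h array of batch 3 it did not pass (adjusted p = 0.0569, limma), and its 3 probe sets ran from -0.54 to -0.04 at 24 h. The lens factors Sox1, Sox2, Nrl and Pitx3 had means under the table median and did not pass in any comparison. For the 16 genes the median difference was 0.06 at 24 h and 0.07 at 48 h. Of all genes, 5.44% and 6.45% rose and 6.66% and 5.27% fell.

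The genes beside the members on their chromosomes were compared with them, 2 on each side and 24 in all. In limma's fit 0 rose (at an unadjusted p under 0.05, 1 was higher in each comparison with 0 h), 4 fell at 24 h and 5 at 48 h. Over all genes 5.44% and 6.45% rose and 6.66% and 5.27% fell. Zp2, beside Crym, was among those fallen at 48 h, with an adjusted p that rounds to 0.05 (limma). Its mean of 3.27 lay under the table median. Crybb3's own neighbours on chromosome 5 were Crybb2, at 0.07 ± 0.06 and -0.12 ± 0.06, Grk3, at -0.02 ± 0.09 and -0.01 ± 0.09, 2900026A02Rik, at 0.13 ± 0.11 and 0.36 ± 0.11, and Sgsm1, which fell by 0.47 and 0.42. The difference of Crybb3 was thus not seen in the 4 genes around it.

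Across the 17 arrays and 11906 genes above the table median, the courses most like that of Crybb3 were those of Rgs4 (Pearson r = 0.984), Aars (0.977), Gstp1 (0.975), Psmb10 (0.974) and Yars (0.972). Rgs4, a regulator of G protein signalling, had differences of 2.99 and 2.62 from 0 h, and Gstp1, a glutathione transferase, 1.99 and 1.79. Aars and Yars, the alanyl and tyrosyl transfer RNA synthetases, had 0.95 and 0.73 at 24 h, and Psmb10, an immunoproteasome subunit, 1.84. With each time's mean taken out the list was another one: Iigp1 (0.856), Fbxo38 (0.838), B4galt1 and Isg20l2 (both 0.819) and Ifi47 (0.802). Rgs4, Aars, Gstp1, Psmb10 and Yars then had 0.642, 0.707, 0.188, 0.674 and 0.312. Iigp1 and Ifi47, interferon-inducible GTPases, were at -0.26 and -0.79 at 24 h and at -1.32 and -1.12 at 48 h. Over the 17 arrays they correlated with Crybb3 at -0.345 and -0.751, so that they went with it only among the arrays of each time.

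The other members had their nearest courses elsewhere: Rcn3 for Cryba2 (r = 0.801), Plin3 for Cryab (0.932), G0s2 for Crym (0.852), Smg5 for Cryz (0.816) and Ak1 for Cryl1 (0.920). The arrays of one batch or time share their source, and these correlations are descriptions.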

How the data were processed

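The log2 signals, 1 per probe set and array, were deposited by the authors after RMA (named in the submitters' processing notes, version not given in the sources used here); the log base was inferred from the values (1.55 to 13.81). RMA's quantile normalization removes shifts that most transcripts share, and differences of dim genes are compressed in RMA values. Of 45101 probe sets, 64 controls were left out and 45037 tested without a filter on level. Gene names came from the platform's annotation, from probe sets with 1 symbol (34945 of those tested).

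One mean per time was fitted to the 17 arrays with limma 3.58.1 in R 4.3.3 (lmFit, eBayes), with Benjamini-Hochberg adjustment over all probe sets and a threshold of 0.05. A gene was represented by its probe set with the highest mean. Errors of differences are limma's standard errors; the number of arrays limits the precision. The script was tested on simulated data.

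The members, the gene lists and the motifs were chosen with earlier results of these data known. Named besides the members were list genes that passed with a mean above the table median (at most 5 per list), Cryaa, Pax6 and Hspb2, 2 chromosome neighbours per side, and the 5 genes most correlated with each member. Other list and marker genes (among them Thra, Thrb, Akr1a1, Crybg2 and Crybb1) fall outside this rule and were chosen after their values were seen.

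The design text assigns each array to a batch, 1 pool of mice split over the times, and this number served as the replicate. Deviations from the time means correlated at a median of 0.00545 over 16 same-batch pairs (-0.159 to 0.274; 4 over 0.1) and -0.00978 over 80 different-batch pairs, with a consensus correlation of 0.0183. Alternatives included a fixed and a random block for batch, the 5 batches with all times, the arrays of 2 times alone, centring, a second quantile normalization, a filter on level, other probe sets, no _x_at and _s_at probe sets, and leaving out each array.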

Additional observations from a re-analysis of the deposited data

Results flagged for a closer look

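In 8 of the 111 groups of 5 or 6 arrays examined, 1 array stood apart from the rest of its time by the gap to its nearest neighbour; chance marks about 1 group in 20. Cryba2 was at 5.96 in batch 5 at 48 h, where the other arrays lay between 5.49 and 5.65. Cryab (1434369_a_at) was at 4.74 in batch 3 at 0 h, with the others between 3.41 and 3.68, and at 3.71 in batch 1 at 48 h, with the others between 3.06 and 3.26. Cryz (1438610_a_at) was at 8.90 in batch 3 at 0 h, under the others at 9.34 to 9.41.

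Among the related genes, Vim was at 6.61 in batch 6 at 48 h, under the others at 7.43 to 7.75. Dio1 was at 8.92 in batch 4 at 0 h, above the others at 8.61 to 8.67. Ttr was at 13.05 in batch 4 at 0 h, above 12.88 to 12.91, and at 12.38 in batch 2 at 48 h, under 12.56 to 12.65. No array was apart for Crybb3, Crym or the Cryl1 probe sets in any of their groups.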

How the results depend on the processing

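Crybb3 kept its differences from 0 h within 3.22 to 3.44 and 2.92 to 3.07 under every alternative run, and -0.44 to -0.22 between 24 and 48 h with single arrays left out. Of 135 member values under other settings, 124 moved by less than the spread between replicates. Signs turned on other probe sets for Cryl1 (1459589_at: 0.52 at 24 h against 0 h, -0.72 at 48 h against 24 h), Cryz (0.28 at 48 h against 0 h, 0.01 at 48 h against 24 h) and Cryab (-0.11 and -0.07 at 48 h against 24 h), and with the mean of all probe sets for Cryz at 48 h against 0 h (0.08) and Cryl1 at 48 h against 24 h (-0.02). With the batch as replicate block, 3640, 3572 and 224 probe sets were called at 24 h against 0 h, 48 h against 0 h and 48 h against 24 h, against 3862, 3815 and 200 without it. The pairing ended the calls of Crybg3, Ptgr2 and Pax6 (on its probe set with the highest mean) given above. Between 48 and 24 h the related genes called numbered 1 (Vim), 2 with the replicate block, 2 with a random block, 3 after a second quantile normalization, 2 with the filter on level, and 1 to 2 with single arrays left out. The cause was not tested. Leaving out single arrays gave 102 to 263 probe sets between 48 and 24 h, with 102 without batch 2 at 48 h and 131 without batch 2 at 24 h, 3041 to 3869 at 24 h and 2862 to 4221 at 48 h against 0 h. Over 1275 such values of named related genes, 1243 kept direction and side of the threshold, 25 lost a call and 7 gained one. Crybg3 lost it in 7 of 17, Pax6 in 6 of 17, Mecr in 4 of 17, Nqo1 at 48 h and Crygf in 3 of 17 each. Meis1 at 24 h and Ptgr2 at 48 h lost it in 1 of 17 each. Cryab and Crym lie near or under the table median, where RMA values are not separated from background.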
